A study of Mus musculus with 79 samples.

Results

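The protein kinase C (PKC) isoforms were examined as 8 genes, Prkca, Prkcb, Prkcd, Prkce, Prkch, Prkcq, Prkci and Prkcz, out of 25899 genes measured in ribosome-bound mRNA of mouse dopaminoceptive neurons. The set was chosen by its measured cortical and striatal levels, which put Prkch among the genes furthest below striatum in prefrontal cortex, so the cortical values of the isoforms are given as a description without a test. Prkch was likewise left untested in comparisons between receptors or regions that include the D1 libraries of that contrast.

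PKC enzymes are serine/threonine kinases that act downstream of receptors coupled to the G protein Gq. Phospholipase C splits a membrane lipid into inositol trisphosphate, which releases calcium, and diacylglycerol, which draws the kinase to the membrane. Conventional isoforms (products of Prkca and Prkcb) respond to calcium and diacylglycerol. Calcium-independent isoforms (Prkcd, Prkce, Prkch and Prkcq) respond to diacylglycerol alone, and atypical isoforms (Prkci and Prkcz) to neither, being directed by protein partners. In striatal projection neurons PKC is known to phosphorylate receptors, channels and transporters in the course of glutamate, muscarinic and serotonin signalling.

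The 79 libraries were made by bacTRAP, in which a bacterial artificial chromosome (BAC) transgene puts a green fluorescent ribosomal protein, eGFP-L10a, under the promoter of a chosen gene, and tagged ribosomes are pulled down with their mRNA. All mice were heterozygous for such a transgene on a C57BL/6J background and no other allele or treatment is labelled; their age was not given in the sources used here. With the tag under the dopamine D1a receptor promoter (D1) there were 15 libraries of dorsal striatum, 15 of ventral striatum (nucleus accumbens) and 19 of prefrontal cortex. With the tag under the D2 receptor promoter (D2) there were 16 of dorsal and 14 of ventral striatum. Of the 79 libraries, 77 are labelled as pools of 3 mice of both sexes; for 2 of D1 prefrontal cortex the sexes are labelled in part only. Whether regions were sampled from the same mice is not given in the sources used here, though runs of consecutive library names cover the regions of 1 receptor in turn, so p-values measure the spread between libraries. In such pools fewer cells of a type and less RNA per cell cannot be told apart.

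Levels are in CPM, a gene's reads scaled to a common library total. Reads in genes ran from 7.35 to 30.8 M (mega) per library. All 5 D1 projection neuron markers that were found were higher in D1 than in D2 striatum, and all 5 D2 markers were lower, in both regions. In the D1 prefrontal cortex libraries the summed D1 markers had a median of 48.9 CPM, against 714 CPM in D1 dorsal striatum. The names of the libraries carried 1 of 4 prefixes, EM, OdP, BdP or JAG, of unstated meaning and unevenly spread: 8 of 16 D2 dorsal striatum libraries were OdP and none of the D1 dorsal striatum libraries were. For the isoforms, the values of EM libraries alone (53 of 79) are therefore given wherever they end a call.

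The isoforms lie on separate chromosomes. In GRCm38, with GENCODE M21 gene models, Prkca spans chr11:107933387-108343928 (minus strand), Prkcb chr7:122288751-122634402 (plus), Prkcd chr14:30595354-30626210 (minus), Prkce chr17:86167785-86657919 (plus), Prkch chr12:73584796-73778185 (plus), Prkcq chr2:11172108-11301222 (plus), Prkci chr3:30995747-31052959 (plus) and Prkcz chr4:155260129-155361361 (minus). Their longest coding frames run from 592 residues (Prkcz) to 737 (Prkce), in 14 (Prkch) to 18 (Prkci, Prkcz) coding exons. Values are sums over each gene. Isoforms made by splicing (PKC beta I and II) or from an internal start (the kinase-only brain form of PKC zeta, PKM zeta) were therefore not told apart. The counting is not stated to use strand. Prkca overlaps Apoh on the opposite strand, a gene that averaged 0.639 CPM.

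RefSeq promoters (GRCm38.p6) were matched for 6 of the 8 isoforms, all but Prkce and Prkch. The stretches upstream of the start are shown for Prkca and Prkci, because these isoforms moved in opposite directions in both regional comparisons below. Capitals mark the GC box GGGCGG on either strand.
Prkca, chr11:108343929-108344138, minus strand: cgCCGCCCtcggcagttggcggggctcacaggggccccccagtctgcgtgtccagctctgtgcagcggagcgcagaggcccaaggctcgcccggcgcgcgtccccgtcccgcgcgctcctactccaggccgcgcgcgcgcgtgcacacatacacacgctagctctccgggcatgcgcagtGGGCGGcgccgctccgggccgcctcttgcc
Prkci, chr3:30995521-30995746, plus strand: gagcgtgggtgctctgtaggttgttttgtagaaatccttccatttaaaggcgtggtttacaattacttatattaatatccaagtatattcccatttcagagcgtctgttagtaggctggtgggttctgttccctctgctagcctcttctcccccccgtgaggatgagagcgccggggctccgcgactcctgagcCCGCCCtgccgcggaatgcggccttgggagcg
The printed Prkca stretch (210 bases) was 76.2% G or C and held 2 GC boxes, and the printed Prkci stretch (226 bases) was 54.0% G or C and held 1. The full windows of 300 bases held 2 GC boxes for each of these isoforms, so the printed counts differ only by where the stretches end. Neither isoform's stretch or full window held the TATA box TATAAA or the cAMP response element TGACGTCA, searched on both strands. Over the 32851 RefSeq promoter windows of 300 bases, 35.7% held a GC box, 13.6% the TATA box and 1.79% the cAMP response element; no searched motif contains another. Prkcz has 3 annotated starts, and the window of 1 of them held a cAMP response element. The window of 1 annotated start of Prkcd held a TATA box.

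Per kilobase of merged exon, Prkcb and Prkce stood above the other members in all 5 groups. The order of this pair rests on the division by length. In CPM the mean of Prkce was higher in all 5 groups, from 348 against 346 CPM in D1 dorsal striatum to 392 against 220 CPM in cortex. Lengths were taken from GENCODE M21, and the annotation used for counting was not given. The level of Prkcb was 96.8 ± 14.0 CPM per kb (SD, n = 15) in D1 dorsal striatum and 61.6 ± 7.07 CPM per kb (n = 19) in D1 prefrontal cortex. Prkce held 55.6 ± 12.1 and 62.8 ± 9.82 CPM per kb in the same groups. A middle tier of Prkca, Prkch, Prkci and Prkcz lay between 5.13 and 19.7 CPM per kb in striatum, with overlapping ranges among most neighbours in the order. Prkcd and Prkcq were lowest in every striatal group, at 1.09 CPM per kb or less on average. Among the 8 members, Prkcb made up 48.0% of the summed per-kilobase level in D1 dorsal striatum, 48.4% in D2 dorsal striatum, 41.1% in D1 ventral striatum, 44.6% in D2 ventral striatum and 39.1% in D1 prefrontal cortex. Prkch ranked 3 of the 8 members in D1 ventral striatum, with 11.1% of their sum, and 7 of 8 in D1 prefrontal cortex, with 0.186%.

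**Figure D1:**
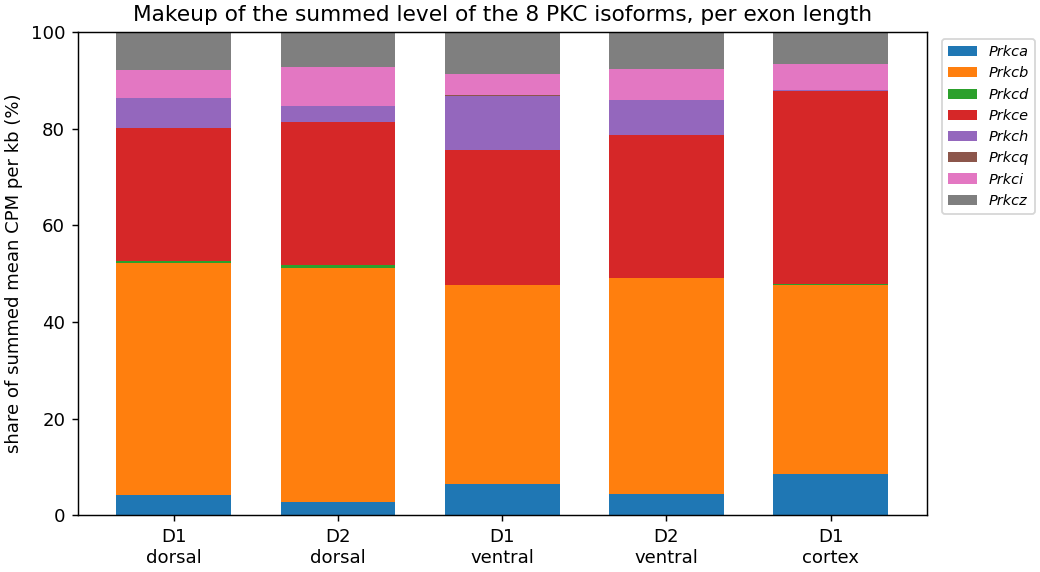
Share of each of the 8 isoform genes in the summed mean CPM per kilobase of exon (percent, vertical axis) in the 5 groups. Prkcb and Prkce fill most of every bar, and the Prkch band runs from 11.1% in D1 ventral striatum to 0.186% in D1 prefrontal cortex.

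Prkca encodes PKC alpha, a conventional isoform that binds the synaptic scaffold PICK1. Its level in D1 neurons exceeded that in D2 neurons of both striatal regions. It was higher in ventral than in dorsal striatum for both receptors and reached its highest mean in cortex. In D1 dorsal striatum its level ran from 56.6 CPM through a median of 72.4 to 86.0, and in D2 dorsal striatum from 33.7 through 43.5 to 59.3. In D1 ventral striatum it ran from 84.9 through 96.4 to 118 CPM, and in D2 ventral striatum from 47.6 through 64.4 to 89.2. The receptor groups barely overlapped: 14 of 15 D1 dorsal libraries lay above every D2 dorsal library, and 13 of 15 D1 ventral libraries above every D2 ventral library. The D1 minus D2 difference on the log2(CPM + 0.5) scale was 0.72 (SE 0.08, limma adjusted p = 5.58e-09) in dorsal and 0.61 (SE 0.08, adjusted p = 2.72e-07) in ventral striatum, or 1.64-fold and 1.51-fold between mean CPM. Dorsal minus ventral it was -0.44 (SE 0.06, adjusted p = 7.42e-07) in D1 and -0.55 (SE 0.09, adjusted p = 1.91e-05) in D2. In D1 prefrontal cortex Prkca ran from 89.1 through 114 to 138 CPM, so that all 19 libraries lay above every D1 dorsal library, while 8 of 19 lay above every D1 ventral library.

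Markers of several other cell types moved with the receptor comparison. The summed cortical excitatory neuron markers (6 of 6 found; Emx1 averaged under 1 CPM in all 4 striatal groups) ran from 33.2 to 141 CPM in D1 dorsal against 1.56 to 37.2 CPM in D2 dorsal striatum, and from 18.2 to 115 against 3.92 to 84.7 CPM in ventral striatum. In D1 prefrontal cortex that sum ran from 567 to 923 CPM. The summed oligodendrocyte markers were higher in D2, with medians of 142 against 100 CPM in dorsal and 115 against 73.8 CPM in ventral striatum. Cholinergic interneuron markers were also higher in D2, with median sums of 8.87 against 1.23 CPM in dorsal and 14.8 against 2.92 CPM in ventral striatum, where 4 of 4 tested were called. The summed GABA interneuron markers had medians of 37.2 CPM in D1 and 14.1 CPM in D2 dorsal striatum (3 of 5 tested higher in D1) and of 28.5 and 33.7 CPM in ventral striatum (0 higher, 1 lower). Oligodendrocyte precursor markers had median sums of 1.80 CPM in D1 and 3.91 CPM in D2 dorsal striatum (1 of 1 tested lower in D1) and of 1.495 and 6.52 CPM in ventral striatum, with none tested. Of 6 striatal projection neuron markers, 4 were lower in D1 in dorsal striatum (median sums 2790 against 3862 CPM), and 3 were lower and 2 higher in ventral striatum (1837 against 2368 CPM). Endothelial markers were at or near 0, with medians of 0.52 CPM or less in every group. Their part in the isoform differences was not tested.

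Markers moved between regions as well. Of 6 striatal projection neuron markers, 5 were higher in dorsal than in ventral striatum of D1 and 6 in D2, with median sums of 2790 against 1837 CPM and 3862 against 2368 CPM. Of 5 GABA interneuron markers tested, 3 were higher and 2 lower in dorsal libraries of D1, and 0 higher and 4 lower in those of D2. Oligodendrocyte markers were higher in dorsal libraries in 3 of 4 tested in D1 and 1 of 6 in D2. D2 projection neuron markers were lower in dorsal libraries of D1 in 5 of 5 (median sums 65.9 against 137 CPM) and higher in 5 of 5 in D2, and D1 projection neuron markers were higher in 3 and lower in 1 of 5 in D1 and lower in 3 of 5 in D2. Cholinergic interneuron markers were lower in dorsal libraries of D2 in 2 of 4. Cortical excitatory neuron markers were higher in dorsal libraries of D1 in 2 of 5 tested (median sums 101 against 66.2 CPM) and in 0 of 3 in D2. Their part in the regional isoform differences was not tested.

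Prkcb encodes PKC beta, the most abundant member in striatum per kilobase, though Prkce had the higher mean CPM. Dorsal striatum held more of it than ventral striatum did for both receptors. Its lowest, median and highest levels were 251, 336 and 465 CPM in D1 dorsal striatum, 268, 308 and 398 in D2 dorsal striatum, 223, 253 and 326 in D1 ventral striatum, 173, 270 and 325 in D2 ventral striatum and 168, 219 and 273 in D1 prefrontal cortex. All neighbouring groups in this order of means overlapped, with dorsal striatum at the top and cortex at the bottom. Dorsal minus ventral, Prkcb rose by 0.40 (SE 0.07, adjusted p = 3.82e-05) in D1 and by 0.24 (SE 0.08, adjusted p = 0.0232) in D2 on the log2 scale. The D2 call was lost in EM libraries alone (0.21, adjusted p = 0.147). D1 minus D2 the difference was 0.12 (SE 0.08, adjusted p = 0.266) in dorsal and -0.04 (SE 0.08, adjusted p = 0.697) in ventral striatum. The dorsal difference passed the test when scaled to reads in genes (0.18, adjusted p = 0.0477) and with quantile normalization (0.26, adjusted p = 4.67e-03).

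Prkce encodes PKC epsilon, a calcium-independent isoform that binds actin. Its levels spread widely within groups and passed the limma test on the deposited scale in no striatal comparison. The lowest, median and highest levels were 191, 356 and 442 CPM in D1 dorsal striatum, 162, 352 and 450 in D2 dorsal striatum, 254, 311 and 362 in D1 ventral striatum, 174, 320 and 391 in D2 ventral striatum and 242, 386 and 488 in D1 prefrontal cortex. Every neighbouring pair of groups overlapped. D1 minus D2 log2 differences were 0.04 (SE 0.14, adjusted p = 0.844) in dorsal and 0.02 (SE 0.10, adjusted p = 0.889) in ventral striatum, and dorsal minus ventral ones 0.13 (SE 0.10, adjusted p = 0.317) in D1 and 0.11 (SE 0.14, adjusted p = 0.592) in D2. The dorsal minus ventral difference in D1 passed the test with edgeR (0.27, adjusted p = 0.0285) and DESeq2 (0.28, adjusted p = 0.0177), and the ventral D1 minus D2 difference with quantile normalization (0.25, adjusted p = 0.0429).

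Prkch encodes PKC eta, best known from epithelial cells. It was present in all striatal groups and nearly missing from the cortical libraries, the pattern on which the set was chosen. It ran from 57.7 CPM through a median of 69.6 to 78.7 in D1 ventral striatum, from 32.2 through 44.4 to 52.9 in D1 dorsal striatum, from 30.4 through 44.7 to 55.9 in D2 ventral striatum and from 15.4 through 20.6 to 31.8 in D2 dorsal striatum. In D1 prefrontal cortex it ran from 0.026 through 0.459 to 6.12 CPM, which was 1 to 270 reads. D1 ventral striatum lay wholly above the next group and cortex wholly below all others, whereas the groups in the middle overlapped. The mean log2 difference of cortex was -5.24 from D1 dorsal and -5.91 from D1 ventral striatum, the seventh of 11654 and the second of 11749 genes counted from the one furthest below striatum. With a pseudocount of 0.1 these values were -6.06 and -6.74.

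The 3 cortical libraries with the most Prkch were among the 4 highest in striatal message. Replicates 6, 2 and 19 of D1 prefrontal cortex had 6.12, 3.81 and 2.01 CPM of Prkch. Their summed striatal projection neuron markers (6 of 6 found, each averaging at least 1 CPM in cortex) were 483, 367 and 372 CPM, ranks 1, 4 and 2 of 19, where the group ran from 153 to 483 CPM with a median of 169. Replicates 7 and 1, next in Prkch at 1.86 and 1.19 CPM, were ranks 6 and 3 for the markers. Exceptions were replicate 3, rank 5 for the markers (235 CPM) and 11 for Prkch (0.409 CPM), and replicate 5, rank 18 for the markers (155 CPM) and 7 for Prkch (0.499 CPM). The lowest Prkch library, replicate 18, had 160 CPM of these markers. The part of this message in the cortical Prkch level was not tested.

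Within striatum Prkch was higher in ventral than in dorsal libraries of D2 neurons. This comparison uses no library of the cortical contrast, though the members were chosen with earlier results of these data known. The log2 difference dorsal minus ventral was -1.01 (SE 0.11, adjusted p = 8.73e-09), with a 2.01-fold higher mean in ventral striatum, and 13 of 14 ventral libraries lay above every dorsal library. In EM libraries alone it was -0.85 (adjusted p = 2.35e-04). As values without a test, the same difference in D1 was -0.67, and D1 minus D2 was 1.04 in dorsal and 0.70 in ventral striatum; in each of these comparisons the groups did not overlap. Prkca showed the same signs in all 4 comparisons.

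Prkcd encodes PKC delta, a familiar marker of central amygdala and thalamic neurons. It was low throughout and rose from ventral to dorsal striatum. It ran from 0.36 through a median of 3.45 to 7.54 CPM in D1 dorsal striatum and from 0.234 through 0.581 to 2.90 in D1 ventral striatum. In D2 it ran from 0.072 through 2.14 to 19.8 CPM in dorsal and from 0.025 through 0.461 to 3.71 in ventral striatum, and in D1 prefrontal cortex from 0 through 1.94 to 4.92. The ranges overlapped in every pair of neighbours, with 9 of 15 D1 dorsal libraries above every D1 ventral one. The dorsal minus ventral log2 difference was 1.41 (SE 0.27, adjusted p = 7.74e-05) in D1 and 1.31 (SE 0.37, adjusted p = 6.84e-03) in D2. On this scale the pseudocount holds down differences of low genes: with edgeR the values were 2.12 and 2.23, with DESeq2 2.12 and 2.23, and the ratios of mean CPM were 4.00 and 4.15. D2 dorsal replicate 13, with 19.8 CPM, stood far above the next library of its group at 7.34 CPM. Without it the D2 difference was 1.11 (adjusted p = 0.0104), and in EM libraries alone 0.94 (adjusted p = 0.125). D1 minus D2 in dorsal striatum, the difference was 0.26 (SE 0.37, adjusted p = 0.631). In ventral striatum Prkcd did not pass the filter on low values. In both regional comparisons it passed that filter mostly through dorsal libraries, so being tested depended on its higher level there.

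The choroid plexus marker Ttr was also higher in dorsal libraries of D2, at 12.4 ± 12.7 CPM (SD, n = 16) against 0.574 ± 0.991 CPM (n = 14) in ventral ones. Kl, the other marker of that list tested, went the other way, at 1.76 ± 0.996 CPM in D2 dorsal and 3.62 ± 1.15 CPM in D2 ventral striatum, and was likewise lower in dorsal libraries of D1. The sum over the list (5 of 5 found) ran from 1.33 to 37.6 CPM in D2 dorsal and from 2.59 to 5.97 CPM in D2 ventral striatum. In D1 the sum ran from 0.589 to 41.5 CPM in dorsal and from 2.61 to 5.20 in ventral striatum. Among D2 dorsal libraries, replicate 13 held 26.5 CPM of Ttr, while replicates 2, 3 and 12 held 36.8, 33.2 and 27.8 CPM with 2.35, 3.96 and 3.30 CPM of Prkcd, and the library second in Prkcd, replicate 15, held 2.18 CPM of Ttr. The part of these markers in the Prkcd difference was not tested.

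Prkcq encodes PKC theta, known for its role at the T cell receptor. It had the lowest mean of all members in 4 of 5 groups and its highest mean in D1 ventral striatum. There it ran from 0.363 through a median of 1.66 to 3.97 CPM, against 0 through 0.489 to 2.20 in D1 dorsal, 0.025 through 0.387 to 1.29 in D2 dorsal and 0 through 0.61 to 2.38 in D2 ventral striatum, and 0 through 0.876 to 1.93 in D1 prefrontal cortex. All neighbouring groups overlapped; median reads ran from 21.5 in D2 dorsal to 85.0 in D1 ventral striatum. Prkcq was higher in D1 than in D2 ventral striatum by 1.03 (SE 0.24, adjusted p = 7.71e-04), a call lost in EM libraries alone (0.52, adjusted p = 0.0792) and after adjustment for the share of reads in genes (0.79, adjusted p = 0.123). It was lower in dorsal than in ventral striatum of D1 by 1.24 on the log2 scale (-1.24, SE 0.23, adjusted p = 7.70e-05). In both comparisons Prkcq passed the filter on low values mostly through D1 ventral libraries, so being tested depended on its higher level there. The regional call in D1 held in all 12 alternatives, including that without a filter. For this low gene the value ran from -1.95 with a pseudocount of 0.1 to -0.90 with one of 1, and the ventral D1 minus D2 difference was 1.59 with a pseudocount of 0.1. In the other 2 striatal comparisons it did not pass the filter on low values.

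**Figure D2:**
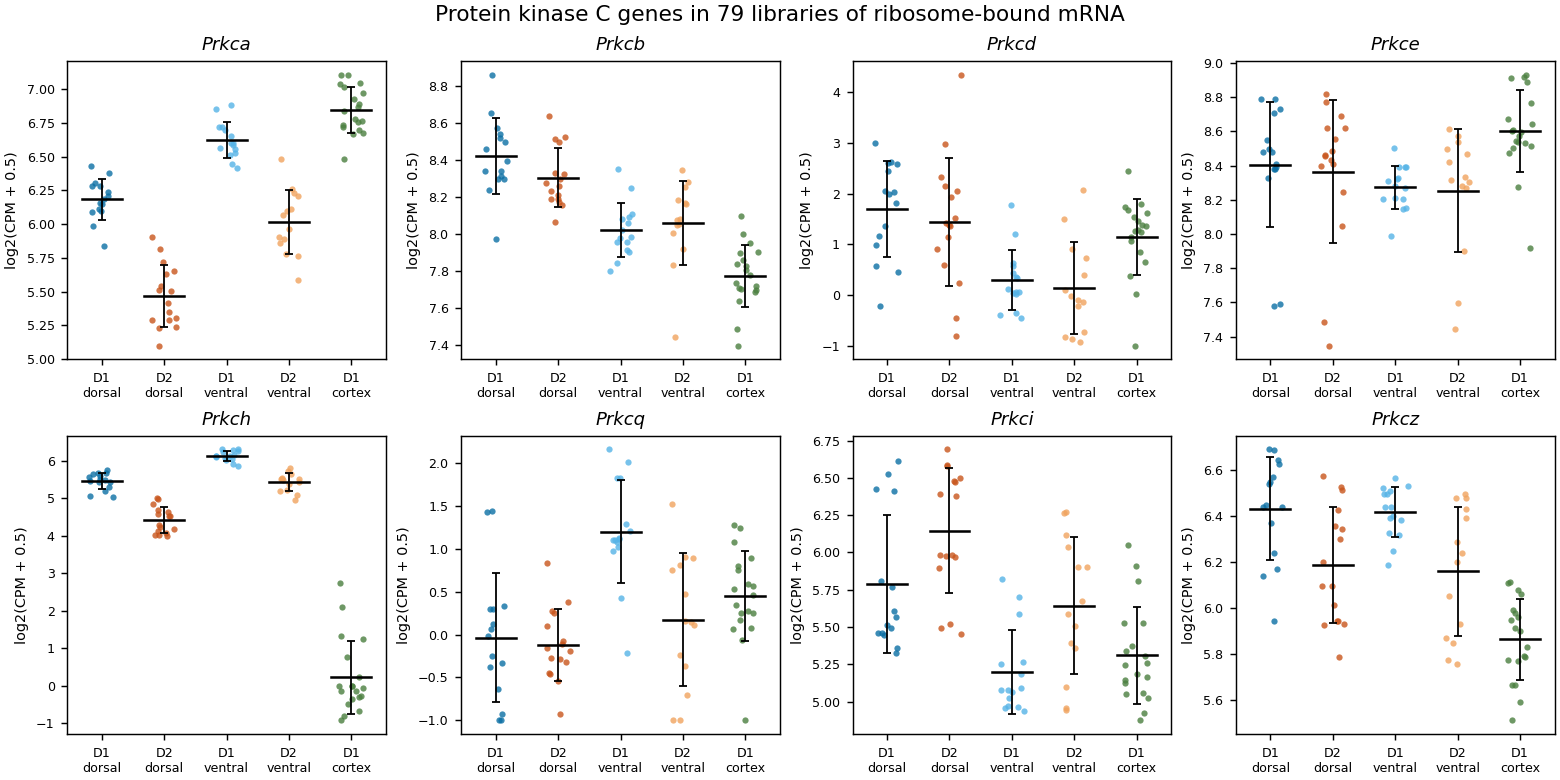
Level of each PKC gene on the log2(CPM + 0.5) scale (vertical axes, each scaled to its gene) in the 5 groups; points are libraries, horizontal bars group means and error bars SD. Prkca is higher in D1 than in D2 striatum, and Prkch falls to a median of 0.459 CPM in D1 prefrontal cortex.

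Prkci and Prkcz encode the atypical isoforms PKC iota and PKC zeta, which work with the PAR polarity proteins. The pair did not move together. Prkci ran from 39.6 CPM through a median of 47.0 to 97.4 in D1 dorsal striatum, from 43.3 through 72.8 to 103 in D2 dorsal striatum, from 30.2 through 33.3 to 56.0 in D1 ventral striatum, from 30.3 through 49.1 to 76.9 in D2 ventral striatum and from 28.8 through 37.4 to 65.8 in D1 prefrontal cortex. Every neighbouring pair of groups overlapped. Dorsal minus ventral, Prkci rose by 0.59 (SE 0.13, adjusted p = 6.79e-04) in D1 and 0.50 (SE 0.15, adjusted p = 0.0106) in D2 on the log2 scale, and these calls remained in EM libraries alone at 0.46 (adjusted p = 1.32e-05) and 0.47 (adjusted p = 0.0194). The summed striatal projection neuron markers, higher in dorsal libraries too, correlated with Prkci within groups (Pearson r = 0.58 over 79 libraries, which share name codes and depth). The same value was 0.62 for Prkce, 0.59 for Prkch, which was lower in dorsal libraries, and -0.41 for Prkcz. Prkce was not called between regions by limma, while edgeR and DESeq2 called it higher in dorsal libraries of D1. The part of these markers was not tested. D1 minus D2 Prkci fell by 0.44 in ventral striatum (SE 0.13, adjusted p = 6.53e-03), which was lost in EM libraries alone (-0.24, adjusted p = 0.0525) and after adjustment for the share of reads in genes (-0.01, adjusted p = 0.975). That share averaged 35.1% ± 1.64 (SD, n = 15) in D1 and 38.0% ± 1.51 (n = 14) in D2 ventral striatum. In dorsal striatum the Prkci difference was -0.36 (SE 0.15, adjusted p = 0.0706), and with the name code as a covariate -0.26 (adjusted p = 0.0474).

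Prkcz ran from 61.0 CPM through a median of 86.8 to 103 in D1 dorsal striatum, from 72.3 through 86.3 to 94.3 in D1 ventral striatum, from 54.6 through 70.4 to 94.8 in D2 dorsal striatum, from 53.4 through 73.9 to 89.8 in D2 ventral striatum and from 45.0 through 59.1 to 68.7 in D1 prefrontal cortex. All neighbouring groups overlapped, though every D1 ventral library lay above every cortical one. D1 minus D2 it rose by 0.25 (SE 0.09, adjusted p = 0.0398) in dorsal and 0.26 (SE 0.08, adjusted p = 0.0125) in ventral striatum. Both calls were lost in EM libraries alone, at 0.11 (adjusted p = 0.54) and 0.14 (adjusted p = 0.173), and after adjustment for the share of reads in genes, at 0.20 (adjusted p = 0.114) and 0.13 (adjusted p = 0.506). The dorsal call was also lost with the name code as a covariate (0.11, adjusted p = 0.454) and without D2 dorsal replicate 13 (0.23, adjusted p = 0.065). Between regions the differences were 0.02 (SE 0.07, adjusted p = 0.893) in D1 and 0.03 (SE 0.10, adjusted p = 0.875) in D2.

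Several isoforms were divided by library name code, among them both atypical ones. In D2 dorsal striatum Prkci ran from 43.3 to 62.8 CPM in the 8 EM libraries and from 82.7 to 103 CPM in the 8 OdP libraries, with no overlap. Prkcz ran the other way, from 67.8 to 94.8 CPM in EM and from 54.6 to 73.0 CPM in OdP libraries. The EM minus OdP log2 difference was -0.73 for Prkci (limma adjusted p = 2.97e-05) and 0.41 for Prkcz (adjusted p = 1.31e-03) there. Prkce differed by -0.52 (adjusted p = 0.0126) and Prkch by 0.49 (adjusted p = 7.32e-03), so that 4 of 7 isoforms tested were called, against 30.2% of all genes. In D2 ventral striatum Prkcq differed by 1.14 (adjusted p = 7.74e-03), Prkci by -0.73 (adjusted p = 2.05e-03) and Prkcz by 0.37 (adjusted p = 0.0564), where 2 of 7 isoforms and 22.1% of all genes were called. In D1 dorsal striatum the 3 BdP libraries held 85.6 to 97.4 CPM of Prkci and the 11 EM libraries 39.6 to 55.6. Prkci and Prkcz deviated from their group means in opposite directions (Pearson r = -0.62 over 79 libraries, which share codes and depth), and with r = -0.05 over the 53 EM libraries.

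**Figure D3:**
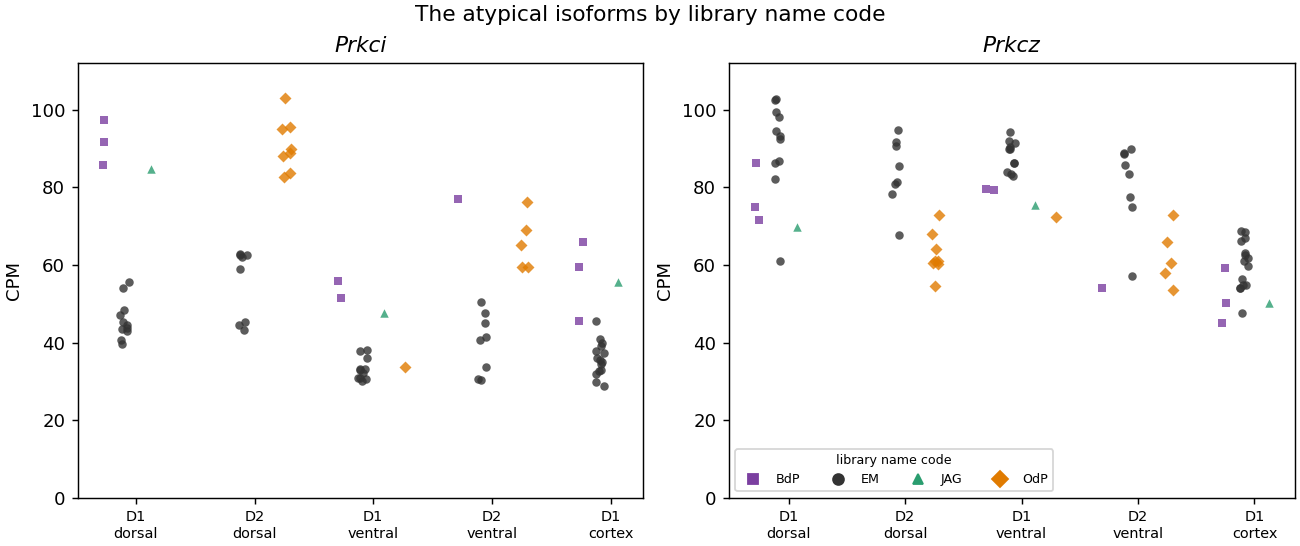
CPM of Prkci (left) and Prkcz (right) per library in the 5 groups, with marker shape and colour for the library name code. In D2 dorsal striatum the OdP libraries sit at 82.7 CPM or more for Prkci, above all EM libraries at 62.8 CPM or less.

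Counted over the set, 2 of 6 isoforms tested differed between D1 and D2 dorsal striatum (Prkca and Prkcz, both higher in D1), where 25.9% of all genes were called. In ventral striatum 4 of 6 were called (Prkca, Prkcq and Prkcz higher in D1, Prkci lower), against 47.7% of all genes. After adjustment for the share of reads in genes 1 isoform and 10.7% of all genes were called there, and in EM libraries alone 1 isoform and 40.1%. In dorsal striatum either setting left 1 isoform, beside 20.5% and 12.3% of all genes. Dorsal against ventral striatum gave 5 of 7 in D1 (Prkcb, Prkcd and Prkci higher in dorsal, Prkca and Prkcq lower), against 34.6%, and 5 of 7 in D2 (Prkcb, Prkcd and Prkci higher, Prkca and Prkch lower), against 28.5%, and 3 in D2 in EM libraries alone, against 19.8%. The median log2 difference of the tested isoforms was 0.18, 0.14, 0.13 and 0.11 in these comparisons, beside 0.02, 0.02, -0.12 and -0.12 for all genes tested. The regional medians of all genes were -0.02 in D1 and 0.00 in D2 after median-ratio scaling, and no called isoform changed direction under any scaling. These comparisons share libraries, so their counts are not independent. Where Prkcd and Prkcq were called, these low genes had passed the filter mostly through the group where they were higher.

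**Figure D4:**
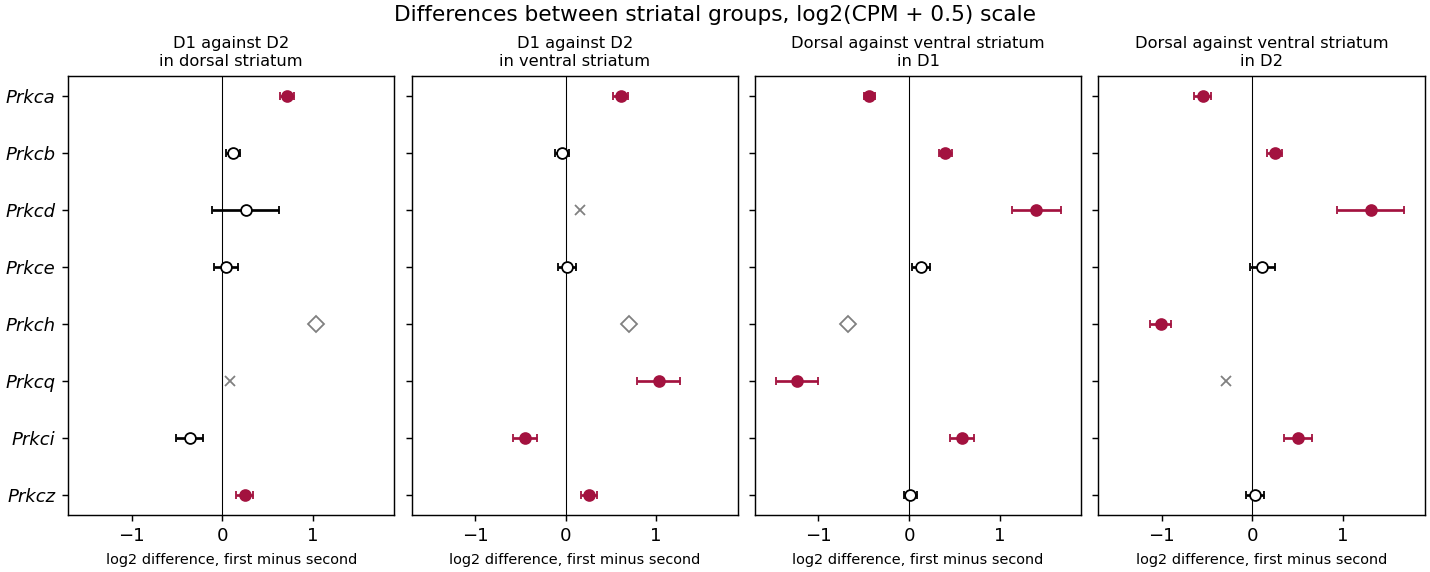
Log2 differences (horizontal axes, first minus second group, with SE) of the 8 isoform genes in the 4 striatal comparisons. Filled points passed the test, open circles did not, grey diamonds (Prkch) are values without a test, and grey crosses did not pass the filter on low values; Prkca lies right of 0 in both receptor comparisons and left of 0 in both regional ones.

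Whether the receptor difference itself differed between regions was tested as an interaction over the 4 striatal groups. It called 0 of 7 isoforms, against 2.64% of all genes. With limma 1 of the 7, Prkcq, had an unadjusted p under 0.05 (log2 difference of differences -0.94, SE 0.32, adjusted p = 0.11), and edgeR and DESeq2 called 0 with 0 at that level. In EM libraries alone the Prkcq value was -0.12 (limma adjusted p = 0.918). Prkch, untested here, had a value of 0.34. Against the number of males in the pool (2 against 1 of 3 mice, 77 libraries), 0 of 8 isoforms were called, against 0.0651% of all genes. Of these, 1 had an unadjusted p under 0.05 with limma (Prkch, 0.30, SE 0.11, adjusted p = 0.21), and edgeR and DESeq2 called 0 with 2 at that level. This fit holds the D1 libraries of the cortical contrast, with group as a term. The 6 striatal projection neuron markers had a median log2 value of 0.29 in it, with 0 called, and their part was not tested.

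In D1 prefrontal cortex, which is described here without a test, the isoforms other than Prkch differed from striatum by much less. Against D1 dorsal striatum the log2 values were 0.66 for Prkca, -0.65 for Prkcb, -0.57 for Prkcz, -0.55 for Prkcd, -0.48 for Prkci and 0.20 for Prkce, and Prkcq did not pass the filter on low values. Against D1 ventral striatum they were 0.86 for Prkcd, -0.75 for Prkcq, -0.55 for Prkcz, 0.33 for Prkce, -0.25 for Prkcb, 0.23 for Prkca and 0.11 for Prkci. Prkcb and Prkcz were thus lower in cortex than in both striatal regions and Prkca and Prkce higher, while Prkcd and Prkci lay between the 2 regions.

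The genes most like each isoform were taken as those with the highest Pearson r over 79 libraries among 9008 genes. For Prkch these were Gm1337 (0.98), Zfp503 (0.97) and Filip1 (0.96), and for Prkca Csdc2, Erbb4 and Pde1a (0.91, 0.91 and 0.90). Within groups the same values were 0.67, 0.63 and 0.60 for Prkch and 0.30, 0.34 and 0.19 for Prkca, so most of the likeness lay between groups. For Prkci, Homer1 (0.88), Tmem132b (0.87) and Gpr137c (0.87) were as close within groups (0.89, 0.79 and 0.86). For Prkce, Celsr2 (0.82), Arl8a (0.81) and Ankrd52 (0.80) were likewise close within groups (0.80, 0.83 and 0.83). Prkci and Prkce differed by name code within D2 dorsal striatum, and the libraries of a group share codes and depth. The part of these in the likeness was not tested, and no value was taken in EM libraries alone. Prkcb was nearest to Rgs4 (0.83), Prkcz to Ramp1 (0.83), Prkcq to Calb2 (0.65) and Prkcd to Sema7a (0.57), with 0.47, 0.62, 0.48 and 0.22 within groups.

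The rest of the pathway was followed in 84 genes of 8 lists. Between D1 and D2, 8 of 66 tested were higher and 15 lower in D1 in dorsal striatum, where 12.8% of all genes were higher and 13% lower. In ventral striatum 17 of 68 were higher and 23 lower, against 24.1% and 23.6% of all genes. In dorsal striatum 13 pathway genes were called in EM libraries alone and 14 with the name code as a covariate, beside 12.3% and 15% of all genes. In ventral striatum 16 were called after adjustment for the share of reads in genes, beside 10.7%. Single pathway genes and lists are given for all libraries on the deposited scale only. Between dorsal and ventral striatum 12 of 69 tested were higher and 18 lower in dorsal libraries of D1, against 10.1% and 24.5%, and 8 of 67 were higher and 18 lower in those of D2, against 7.93% and 20.6%. With median-ratio scaling the shares of all genes higher and lower in dorsal libraries were 14.7% and 14.5% in D1 and 12.5% and 11.9% in D2. Scaled to reads in genes, those higher and lower in D1 were 15.4% and 10.4% in dorsal and 32.4% and 16.6% in ventral striatum. Among Gq-coupled receptors and Gq subunits, 5 of 9 tested were lower in D1 dorsal striatum and 0 higher, beside 13% of all genes lower. In ventral striatum 5 of 10 were lower and 2 higher, beside 23.6% lower and 24.1% higher. Htr2c, the serotonin 2C receptor, averaged 8.88 ± 2.37 CPM (SD, n = 15) in D1 and 23.1 ± 3.67 CPM (n = 16) in D2 dorsal striatum, without overlap (log2 -1.36, adjusted p = 1.74e-11). Tacr1, the substance P receptor, differed by -1.66 there and by -1.26 in ventral striatum, and Htr2a by -1.30 in ventral striatum.

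Upstream of the isoforms, Plcb1, a phospholipase C driven by Gq, was lower in D1 by 0.37 in dorsal (-0.37) and 0.30 in ventral striatum (-0.30), and higher in dorsal than ventral striatum by 0.65 in D1 and 0.71 in D2. In the phospholipase C list 2 of 10 tested passed in D1 against D2 dorsal striatum, and 6 of 10 in ventral striatum, beside 25.9% and 47.7% of all genes. Diacylglycerol kinases end the lipid signal. Of these Dgkz was 51.2 ± 10.9 CPM in D1 and 13.3 ± 3.34 CPM in D2 dorsal striatum (log2 1.91, adjusted p = 2.08e-15), with no overlap, and Dgkb was lower in D1 by 0.40 (-0.40, adjusted p = 0.0136). Dgkk was lower in dorsal libraries than in ventral ones, by -2.53 in D1 and -3.80 in D2. The interaction called 6 of 69 pathway genes, against 2.64% of all genes, among them Htr2a (0.92), Dgkk (1.27), Dgkz (0.64) and Chn1 (0.41). In EM libraries alone it called 3 pathway genes, and 1.95% of all genes.

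Of the anchors and scaffolds, 4 of 11 were higher and 2 lower in D1 than in D2 dorsal striatum, and 2 higher and 1 lower in ventral striatum; dorsal against ventral, 1 was higher and 1 lower in D1 and 0 higher and 2 lower in D2. Of the PKC substrates, 0 of 8 were higher and 1 lower in D1 dorsal striatum and 3 of 9 higher and 2 lower in ventral striatum, while 1 of 9 was higher and 4 lower in dorsal libraries of D1 and 2 higher and 4 lower in those of D2. Of 9 other diacylglycerol receptors, 2 were higher and 1 lower in D1 dorsal striatum and 3 higher and 2 lower in ventral striatum; dorsal against ventral, 3 were higher and 2 lower in D1 and 1 higher and 2 lower in D2. The shares of all genes are those given above for the same comparisons. Chn2, a Rac regulator that binds diacylglycerol, was lower in dorsal than in ventral striatum without overlap, by -1.97 in D1 and -1.68 in D2 on the log2 scale. Wwc1 (KIBRA), a partner of the atypical isoforms, was lower in D1 than in D2 by -0.52 in dorsal and -0.42 in ventral striatum. Nrgn (neurogranin), a PKC substrate that binds calmodulin, averaged 313 ± 66.1 CPM in D1 dorsal and 89.6 ± 20.0 CPM in D1 ventral striatum (log2 1.80, adjusted p = 3.76e-15), and differed by 1.30 in D2. Gap43, a growth cone substrate, went the other way, at -0.87 in D1 and -0.64 in D2. Among the related kinases Prkd1, protein kinase D1, was lower in D1 than in D2 by -1.65 in dorsal and -1.59 in ventral striatum, with no overlap in either. Of the genes for maturation and dephosphorylation of PKC, 0 of 6 were called between D1 and D2 dorsal striatum and 4 of 6 in ventral striatum (1 higher and 3 lower in D1), beside 25.9% and 47.7% of all genes.

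**Figure D5:**
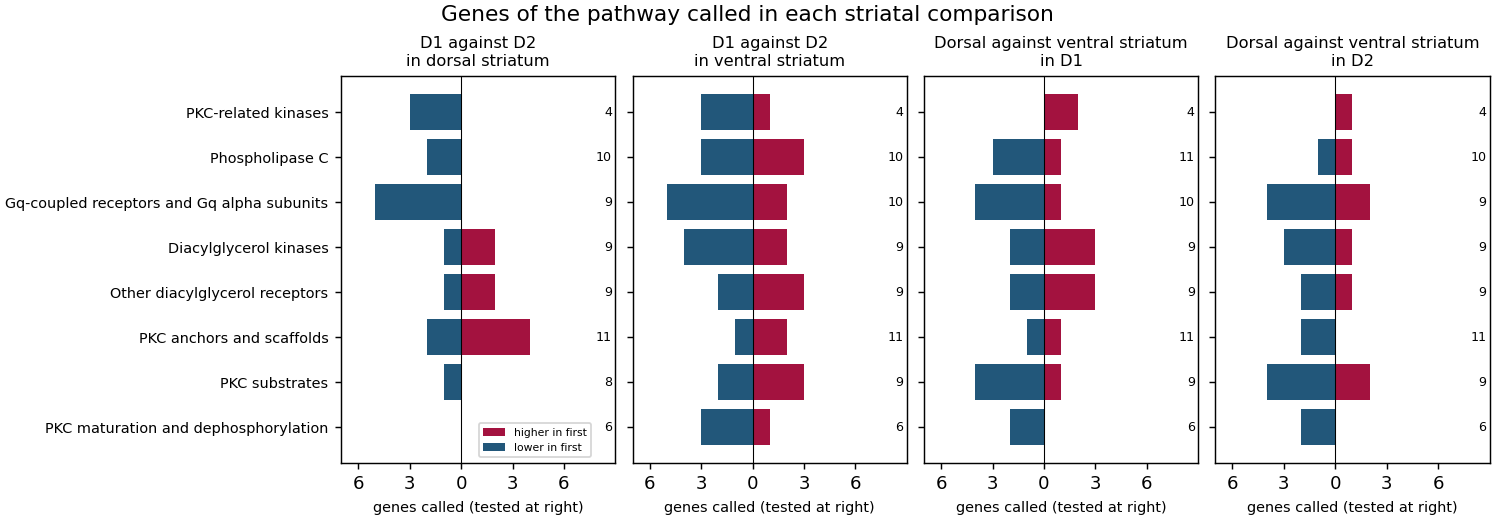
Number of genes called per pathway list (horizontal axes; red higher and blue lower in the first group, number tested at the right edge) in the 4 striatal comparisons. Of the Gq-coupled receptors and subunits, 5 of 9 were lower and 0 higher in D1 dorsal striatum (all genes, 13% lower and 12.8% higher), and 5 of 10 were lower and 2 higher in D1 ventral striatum (23.6% and 24.1%).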

How the data were processed

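Ribosome-bound mRNA of 79 libraries was measured. The authors deposited CPM values for 25899 genes. Per the submitters' processing notes, Trim Galore 0.4.2, cutadapt 1.9.1, FastQC, HISAT2 and GRCm38 were used; the counter, annotation and any filter were not given in the sources used here. CPM were whole multiples of a step per library (100% whole within 0.01), so reads were recovered; columns summed to between 309566 and 401527 CPM, so scaling was to a larger total than reads in genes. cDNA was amplified without molecular identifiers, so depth covers counting error only.

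Groups came from region and receptor labels. Members and lists were chosen with earlier results of these data known. Genes with at least 1 CPM in as many libraries as the smaller group were tested on log2(CPM + 0.5) with limma 3.58.1 (R 4.3.3, two-sided, Benjamini-Hochberg over all genes tested) and called at an adjusted p under 0.05; the script was tested on simulated data. Recovered reads were tested with edgeR 4.0.16 and DESeq2 1.42.0 as alternatives. All members are named; from each pathway list up to 3 called genes of at least 5 CPM, by size of difference, could be named, and the 3 most similar genes per member. Some genes of the pathway lists are not reported here and were left out of the counts. Alternatives covered pseudocount, filter, scaling, tool, name code, males, share of reads in genes and 2 left-out libraries. No library pair of 592 agreed within sampling noise.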

Additional observations from a re-analysis of the deposited data

How the results depend on the processing

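Of 41 tested isoform results, 17 kept their direction and their side of the threshold under every alternative run; of 15 cortical values without a test, 13 moved by less than 1 SD. The results of Prkca kept direction and call in all 4 striatal comparisons, with ranges of 0.69 to 0.79 and 0.58 to 0.77 for D1 minus D2 in dorsal and ventral striatum and of -0.46 to -0.33 and -0.56 to -0.42 for dorsal minus ventral in D1 and D2; Prkch in D2 ran from -1.08 to -0.85. Depth limits Prkcd and Prkcq, with medians of 21.5 to 129 reads. The causes of the changes below were not tested. No paired fit was run, because replicate numbers were given in accession order and no label says which libraries share mice; the names run in sets of consecutive numbers across regions, and 1 pair of JAG libraries shares a number, but taking these as pairs would rest on the order of names. Leaving out D2 dorsal striatum replicate 13 was chosen after seeing the data.

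Isoforms called between D1 and D2 in dorsal striatum numbered 1 in EM libraries, 1 after adjustment for the share of reads in genes and 1 without D2 dorsal striatum replicate 13; in ventral striatum 1 in EM libraries and 1 with that share. Dorsal against ventral striatum in D2 gave 3 in EM libraries, and the interaction 1 with quantile normalization (Prkcq, -1.03, adjusted p = 0.0353). Over all genes, calls between D1 and D2 in dorsal striatum were 1389 in EM libraries and 1658 with the name code as a covariate, against 2871. In ventral striatum they were 1218 with the share in genes, against 5443. Interaction calls were 480 with the name code, against 313. Calls for the number of males were 8, and 0 without a filter, 13 scaled to reads in genes, 15 with median-ratio scaling, 17 with quantile normalization, 85 with DESeq2, 225 in EM libraries, 215 with the name code and 24 with the share in genes; leaving out 1 library gave 0 to 16.

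The reversed values were all of differences not called on the deposited scale; of these, Prkce in ventral striatum passed with quantile normalization (0.246). For D1 minus D2 in dorsal striatum these were Prkcd with edgeR (-0.091) and DESeq2 (-0.086) and Prkce with the share in genes (-0.044). In ventral striatum they were Prkcb scaled to reads in genes (0.073), with quantile normalization (0.17) and with the share (0.041), and Prkce with edgeR (-0.014), DESeq2 (-0.025) and the share (-0.079). Dorsal minus ventral in D2 they were Prkce in EM libraries (-0.022) and Prkcz with the share (-0.034). In the interaction, Prkcd reversed with a pseudocount of 0.1 (-0.045), edgeR (-0.13) and DESeq2 (-0.12), Prkce scaled to reads in genes (-0.031), with quantile normalization (-0.078) and without D2 ventral striatum replicate 2 (-0.005, against 0.035 without D2 dorsal striatum replicate 13), Prkci in EM libraries (-0.012) and with the share (-0.077), and Prkcz with the share (0.039). For the number of males, Prkcd reversed with median-ratio scaling (0.004), and in EM libraries and with the name code Prkcq (0.082 and 0.062), Prkci (-0.125 and -0.093) and Prkcz (0.047 and 0.031).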
